A study of Mus musculus with 9 samples.

Results

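The miR-34 family was represented by 5 rows of the table of mature miRNA counts, chosen by name as every row of miR-34a, miR-34b or miR-34c, out of 621 rows in all. They were mmu-miR-34a-5p, mmu-miR-34b-5p, mmu-miR-34b-3p, mmu-miR-34c-5p and mmu-miR-34c-3p, and all 5 were among the 509 rows that passed a filter on low counts. The data came from left ventricles of male C57BL/6J mice aged 6 months, with 3 libraries in each of 3 groups. These were the CaNrf2-High line (TG-High), the CaNrf2-Low line (TG-Low) and non-transgenic controls (NTG). TG denotes the 6 libraries of both transgenic lines, which the submitters set together against NTG. Nrf2 is a transcription factor that turns on genes of antioxidant defence. The sources used here give neither the promoter that drives the transgene nor whether each library is a separate animal. The p-values therefore reflect the spread between these libraries only, and that spread may be technical.

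miRNAs are short RNAs that pair with mRNAs, chiefly through a seed near their 5′ end, and lower the output of those mRNAs. The miR-34 genes are direct transcriptional targets of the tumour suppressor p53, and their 5p arms repress mRNAs of the cell cycle and of survival. miR-34a has a locus of its own and is found in many tissues, whereas miR-34b and miR-34c are cut from a shared primary transcript that is abundant in testis and in multiciliated epithelium. In mouse heart, miR-34a has been described as rising with age and injury.

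The hairpin of miR-34a lies at chr4:150068454-150068555 on the plus strand of GRCm38, and it overlaps an exon of Gm37795, an annotated transcript on the same strand. The hairpins of miR-34c and miR-34b lie at chr9:51103034-51103110 and chr9:51103562-51103645 on the minus strand, 451 bases apart. Both lie in an intron of Btg4, a protein-coding gene on the opposite strand. Of the 5 rows, 4 matched a mature sequence of RefSeq (GRCm38.p6), and these are shown to set the seeds of the family side by side, with bases 2 to 8 in capitals.
miR-34a-5p: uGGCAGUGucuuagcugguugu
miR-34b-5p: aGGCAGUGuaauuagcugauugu
miR-34b-3p: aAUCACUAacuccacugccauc
miR-34c-3p: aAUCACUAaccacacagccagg
miR-449a-5p: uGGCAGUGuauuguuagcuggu
The seed GGCAGUG belonged to 4 of 1679 mature RefSeq entries, the 5p arms of miR-34a, miR-34b, miR-449a and miR-449c. miR-34c-5p is absent from that count because it had no mature entry in the reference used. Its sequence was therefore not read here, and that it shares this seed is taken as background. miR-449a-5p is included because it was the seed relative with a row in the count table. Compared position by position without a gap, miR-34a-5p and miR-34b-5p shared bases 2 to 9 and were identical at 11 of 22 positions. That count misses likeness at an offset. The 3′ parts of the printed sequences are closely alike once the greater length of miR-34b-5p (23 against 22 bases) is allowed for. The 3p arms of miR-34b and miR-34c had a seed of their own, AUCACUA, held by these 2 entries alone, and were identical at 17 of 22 positions. The hairpin of miR-34b is given with its 5p arm first and its 3p arm second in capitals, since its 3p arm was the more abundant product.
Mir34b hairpin: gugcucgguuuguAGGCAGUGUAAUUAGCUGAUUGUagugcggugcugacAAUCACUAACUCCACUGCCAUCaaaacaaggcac

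Total counts per library ranged from 3620460 to 11695700, both in TG-High. Heart muscle miRNAs were present in every library, miR-208a-3p at 2376 to 2743 counts per 1000000 (CPM) in TG-High, 2874 to 2973 CPM in TG-Low and 2429 to 2475 CPM in NTG. miR-133a-3p, also a defining muscle miRNA, was at no more than 3.83 CPM in any library. miR-1a-3p, another such miRNA, was at 93.7 to 142 CPM in TG-High, 112 to 166 in TG-Low and 54.4 to 114 in NTG. Whether the counting of reads affected these levels was not tested. CPM values here are scaled by the trimmed mean of M values (TMM), and fold changes come from edgeR's quasi-likelihood test, whose p-values were adjusted by Benjamini-Hochberg over all 509 rows with a threshold of 0.05. Since ventricle is a mixture of cells, a change in the number of cells of a type and a change in RNA per cell cannot be told apart.

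Both arms of miR-34b and of miR-34c rose in TG-High hearts, and miR-34a-5p did not pass the test in any comparison. The 4 rows that rose were between 2.33-fold (miR-34c-5p) and 2.90-fold (miR-34c-3p) above NTG in the fit. The same 4 rows had positive fold changes in TG-Low, and none of them passed edgeR's test there. The rows of the chromosome 9 locus and the row of chromosome 4 thus had fold changes of opposite sign against NTG.

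The family spanned a wide range of abundance. miR-34a-5p averaged 152 CPM over the 9 libraries and ranked 127 of 509 rows, and miR-34c-5p averaged 123 CPM and ranked 138. The other 3 were scarce. miR-34b-3p averaged 7.74 CPM (rank 307), miR-34c-3p 3.80 CPM (rank 372) and miR-34b-5p 3.33 CPM (rank 383). The 4 mature RNAs with a RefSeq entry were 22 or 23 bases long.

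miR-34c-5p, the abundant arm of the chromosome 9 locus, had 161, 191 and 150 CPM in TG-High libraries, 115, 167 and 103 CPM in TG-Low libraries and 73.2, 94.2 and 47.9 CPM in NTG libraries (replicates 0, 1 and 2). All 6 transgenic libraries lay above all 3 NTG libraries, as held for 8.06% of tested rows, and the 2 transgenic lines overlapped each other. Group means were 167 ± 21.6 CPM in TG-High, 129 ± 33.9 in TG-Low and 71.8 ± 23.2 in NTG (SD, n = 3 each). The counts behind them were 547 to 2350 per library in TG-High, 790 to 1371 in TG-Low and 463 to 805 in NTG.

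The minor arm of the same hairpin, miR-34c-3p, had 6.44, 6.19 and 4.10 CPM in TG-High, 3.79, 3.90 and 3.79 CPM in TG-Low and 2.19, 3.04 and 0.724 CPM in NTG. Here too the transgenic libraries lay above every NTG library, which held for 8.06% of tested rows. The TG-High libraries also lay above every TG-Low library, which held for 6.68% of tested rows. These were low counts, 15 to 76 in TG-High, 29 to 32 in TG-Low and 7 to 26 in NTG. The lowest value, 7 counts in NTG replicate 2, has an exact 95% Poisson interval of 0.291 to 1.49 CPM, which covers counting error only.

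miR-34b-3p, the dominant arm of the neighbouring hairpin, had 9.30, 11.5 and 13.1 CPM in TG-High, 6.12, 9.26 and 6.53 CPM in TG-Low and 3.56, 6.67 and 3.62 CPM in NTG. TG-High stood above both other groups without overlap, while TG-Low overlapped NTG, in which replicate 1 was the highest. Of all tested rows, 20.0% had TG-High above NTG without overlap and 6.68% had TG-High above TG-Low. miR-34b-5p, the arm with the family seed, had 3.58, 4.56 and 6.56 CPM in TG-High, 3.30, 3.90 and 2.09 CPM in TG-Low and 1.10, 2.93 and 1.97 CPM in NTG. It rested on 24 to 56 counts per library in TG-High, 16 to 32 in TG-Low and 8 to 25 in NTG. TG-High again lay above NTG, as in 20.0% of tested rows, and TG-Low overlapped both.

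miR-34a-5p had 142, 161 and 92.5 CPM in TG-High, 171, 137 and 109 CPM in TG-Low and 132, 214 and 210 CPM in NTG. NTG replicates 1 and 2 were the highest of all libraries, and NTG replicate 0 lay within the range of both transgenic lines. The means were 132 ± 35.3 CPM in TG-High, 139 ± 30.9 in TG-Low and 185 ± 46.4 in NTG (SD, n = 3 each). The plot of levels by library shows miR-34a-5p lowest in the transgenic groups on average and the 4 other rows lowest in NTG.

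**Figure D1:**
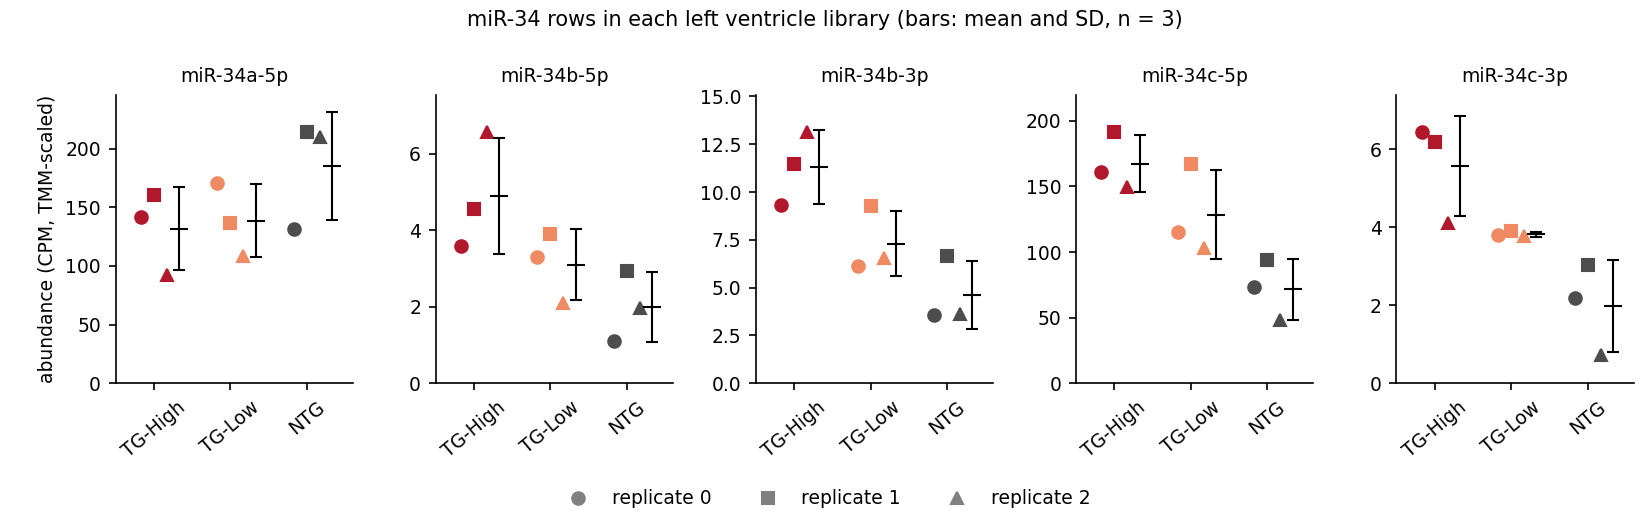
Abundance in CPM (vertical axis, linear, a scale for each panel) of the 5 miR-34 rows in TG-High, TG-Low and NTG libraries, with a symbol for each replicate number and a bar for mean and SD. miR-34c-5p lies at 150 to 191 CPM in TG-High, 103 to 167 in TG-Low and 47.9 to 94.2 in NTG, whereas miR-34a-5p overlaps between all groups.

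For TG-High against NTG, the question is what the CaNrf2-High line shows by itself. In this comparison 8.84% of all tested rows were higher past the threshold, and 4 of the 5 miR-34 rows were. These 4 are arms cut from a shared primary transcript, so their calls are not independent results. On the log2 scale the fold change was 1.22 ± 0.25 for miR-34c-5p (SE; adjusted p = 0.00810 by edgeR) and, for miR-34b-3p, 1.28 ± 0.29 (adjusted p = 0.0130). miR-34c-3p was at 1.54 ± 0.40 (adjusted p = 0.0231) and miR-34b-5p at 1.23 ± 0.38 (adjusted p = 0.0461). By size of fold change miR-34c-3p ranked 5, miR-34b-3p 11, miR-34b-5p 13 and miR-34c-5p 15 of 509. In each of these 4 rows all 3 TG-High libraries lay above all 3 NTG libraries, which held for 20.0% of tested rows. DESeq2's Wald test called the same 4 rows higher, among 9.04% of rows called higher by it. miR-34a-5p was at -0.49 ± 0.25 (adjusted p = 0.206), with a 95% interval of -1.04 to 0.06.

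The call of miR-34c-5p held in all 14 refits under other settings, with log2 fold changes from 1.01 to 1.44 and adjusted p from 0.000117 to 0.0469. The scarce arms kept positive log2 fold changes in all 14 refits, but the size varied and their calls were lost in some. The range over all refits was 1.12 to 1.62 for miR-34b-3p, 1.12 to 1.997 for miR-34c-3p and 0.95 to 1.58 for miR-34b-5p. Each of these arms was highest without NTG replicate 1. The lowest value was without NTG replicate 2 for miR-34c-3p and without NTG replicate 0 for both arms of miR-34b. The call of miR-34b-3p was lost without TG-High replicate 1 (edgeR adjusted p = 0.0559), NTG replicate 0 (0.0596) or NTG replicate 2 (0.0579), and that of miR-34c-3p without TG-High replicate 0 (0.0808), TG-High replicate 1 (0.0885) or NTG replicate 0 (0.0596). In those refits the log2 fold change was 1.12 to 1.21 for miR-34b-3p and 1.41 to 1.61 for miR-34c-3p. The call of miR-34b-5p was lost with library totals as scaling (adjusted p = 0.0586), with the replicate number as a block (0.0524), and without any 1 of the 3 TG-High libraries, TG-Low replicates 0 and 1 and NTG replicates 0 and 2 (adjusted p from 0.0515 to 0.130), with log2 fold changes from 0.95 to 1.47. TG-Low libraries enter these refits through the shared estimate of the spread.

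**Figure D2:**
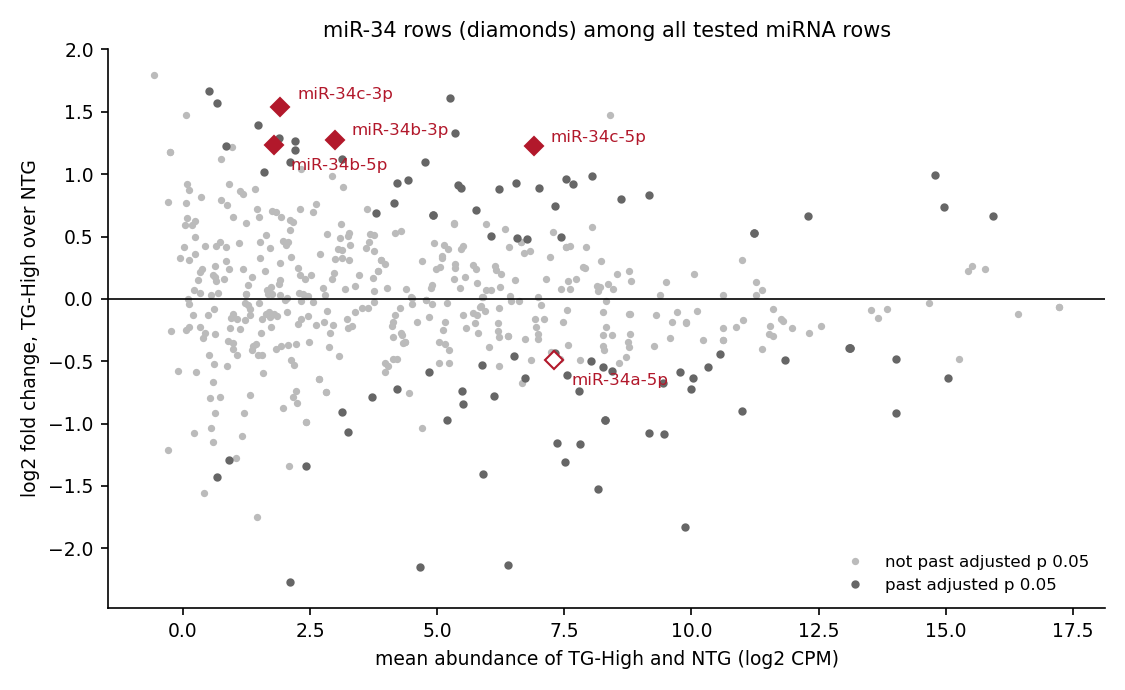
Log2 fold change of TG-High over NTG (vertical axis) against the mean abundance of both groups in log2 CPM (horizontal axis) for the 509 tested rows as points, dark where past an adjusted p of 0.05, with the miR-34 rows as diamonds, filled where past it. The 4 rows of miR-34b and miR-34c lie between 1.22 and 1.54, and miR-34a-5p lies at -0.49.

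For TG-Low against NTG, 0 of the 5 rows passed edgeR's test, against 1.57% of all tested rows in either direction (7 higher and 1 lower, against 5 higher and 4 lower with library totals as scaling). At an unadjusted p under 0.05 there were 3 of 5 (17.3% of tested rows), and DESeq2's Wald test, which called 3.60% of rows higher, called miR-34c-5p and neither miR-34b-3p nor miR-34a-5p, and gave no adjusted p for miR-34b-5p and miR-34c-3p. For miR-34c-5p the log2 fold change was 0.84 ± 0.25 (SE; adjusted p = 0.117 by edgeR), with a 95% interval of 0.29 to 1.39, and DESeq2 gave it an adjusted p of 0.0333. With the replicate number as a block it passed edgeR's test as well, at 0.86 (adjusted p = 0.0291). In the 12 other of 14 refits it did not pass. Among these it was 0.58 without NTG replicate 2 (edgeR adjusted p = 0.258), 0.60 without TG-Low replicate 1 (0.372) and 1.08 without NTG replicate 1 (0.0758). In the main fit the values were 0.96 ± 0.40 for miR-34c-3p, 0.66 ± 0.29 for miR-34b-3p and 0.62 ± 0.39 for miR-34b-5p, with edgeR adjusted p from 0.241 to 0.398. All 3 TG-Low libraries lay above all 3 NTG libraries for both arms of miR-34c, which held for 11.4% of tested rows. miR-34a-5p was at -0.42 ± 0.25 (adjusted p = 0.378).

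With both lines together against NTG, the comparison that the submitters made, miR-34c-5p rose 2.06-fold and was the 1 row of the 5 past edgeR's threshold, where 4.72% of all tested rows were higher. Over all tested rows 24 were higher and 20 lower, against 15 higher and 30 lower with library totals as scaling. Its log2 fold change was 1.04 ± 0.24 (SE; adjusted p = 0.0197). That call was lost without TG-High replicate 0 (adjusted p = 0.0510), TG-High replicate 1 (0.0545), NTG replicate 0 (0.0772) or NTG replicate 2 (0.0938), where the log2 fold change was 0.81 to 1.05. miR-34c-3p was at 1.27 ± 0.38 (edgeR adjusted p = 0.0568) and miR-34b-3p at 0.99 ± 0.30 (adjusted p = 0.0570), and both passed DESeq2's Wald test (adjusted p = 0.0187 for miR-34c-3p and 0.0214 for miR-34b-3p), which called 8.28% of rows higher. With the 3-group model they passed edgeR's test as well (adjusted p = 0.0396 for miR-34c-3p and 0.0319 for miR-34b-3p). miR-34b-5p was at 0.94 ± 0.37 (edgeR adjusted p = 0.112) and miR-34a-5p at -0.45 ± 0.21 (adjusted p = 0.167).

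In the authors' deposited table of this comparison, 5.96% of 621 rows were higher past an adjusted p of 0.05. The miR-34 rows past it in the authors' deposited table numbered 3 of 5, namely miR-34c-5p (log2 fold change 1.03, SE 0.26, adjusted p = 0.00166), miR-34b-3p (0.99, SE 0.33, adjusted p = 0.0299) and miR-34c-3p (1.25, SE 0.43, adjusted p = 0.0309). In the authors' deposited table miR-34b-5p had 0.95 (adjusted p = 0.103) and miR-34a-5p -0.46 (adjusted p = 0.138).

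For TG-High against TG-Low, which asks whether the lines differ, 0 of the 5 rows passed edgeR's test, against 1.38% of tested rows in either direction (1 higher and 6 lower, against 1 higher and 3 lower with library totals), and 0 of 5 were at an unadjusted p under 0.05 (8.06% of tested rows) or past DESeq2's Wald test (2.36% of rows). The log2 fold changes were 0.62 ± 0.28 for miR-34b-3p, 0.61 ± 0.37 for miR-34b-5p, 0.58 ± 0.37 for miR-34c-3p and 0.38 ± 0.25 for miR-34c-5p (SE, edgeR adjusted p from 0.610 to 0.691). The 95% interval for miR-34c-5p ran from -0.17 to 0.93, so a difference between lines in either direction was not settled. Both miR-34b-3p and miR-34c-3p were higher in all 3 TG-High libraries than in any TG-Low library, as were 6.68% of tested rows. miR-34a-5p was at -0.07 ± 0.25 (adjusted p = 0.975), a value that turned to 0.01 with library totals as scaling. The comparisons with NTG share the same 3 NTG libraries, so their fold changes are given side by side and not as independent results.

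**Figure D3:**
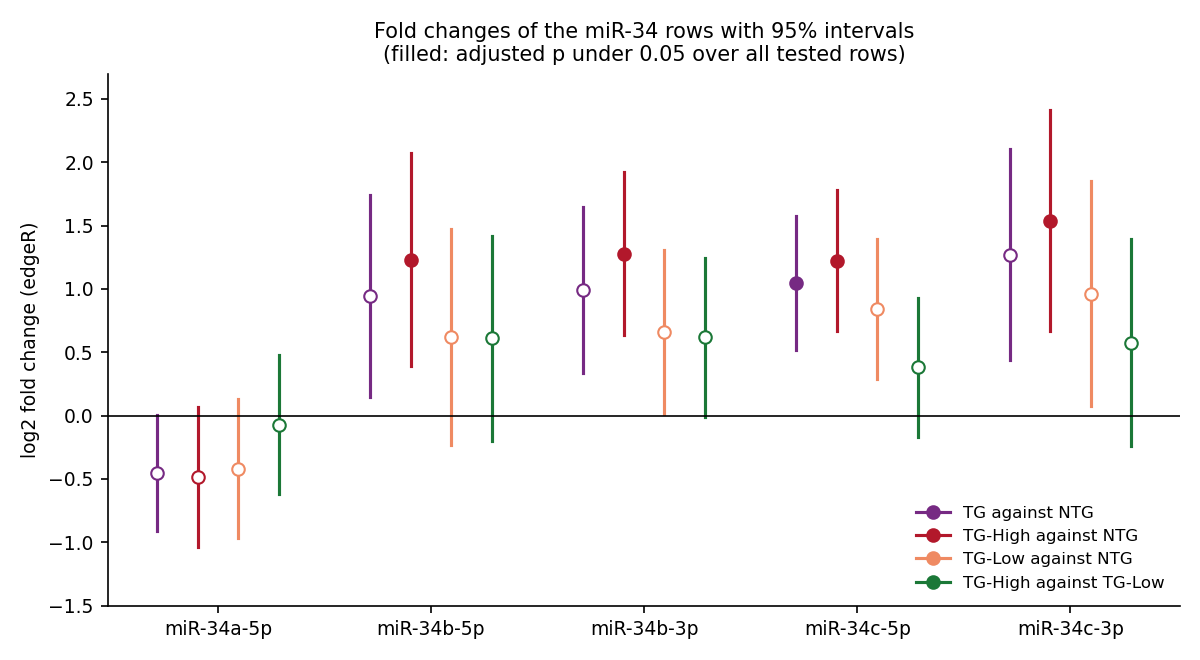
Log2 fold change (vertical axis) of each miR-34 row in the 4 comparisons, as points with 95% intervals from edgeR, filled where the adjusted p is under 0.05. For miR-34c-5p the points are 1.04 in TG, 1.22 in TG-High and 0.84 in TG-Low against NTG, and 0.38 in TG-High against TG-Low, while the miR-34a-5p points lie at or below -0.07.

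The balance between the loci was measured among reads of the 5p arms. Of the reads of these seed-sharing arms, miR-34c-5p made up 55.4% ± 4.14 in TG-High, 47.5% ± 7.23 in TG-Low and 28.1% ± 8.74 in NTG (SD, n = 3 each). miR-34a-5p made up 42.9% ± 4.96 in TG-High, 51.4% ± 7.28 in TG-Low and 71.2% ± 8.67 in NTG, and miR-34b-5p the small remainder, 1.70% ± 0.820 in TG-High, 1.13% ± 0.146 in TG-Low and 0.743% ± 0.204 in NTG. The 95% Wilson interval of these shares was at most 6.35 percentage points wide in any library, from counting error alone. miR-34c-5p outnumbered miR-34a-5p in 3 of 3 TG-High, 1 of 3 TG-Low and 0 of 3 NTG libraries.

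The log2 ratio of miR-34c-5p to miR-34a-5p was 0.18, 0.25 and 0.69 in TG-High, -0.56, 0.29 and -0.08 in TG-Low and -0.85, -1.18 and -2.13 in NTG. Every transgenic library lay above every NTG library. The difference of means was 1.52 for TG against NTG (two-sided exact permutation test, p = 0.0238, the smallest that 6 against 3 libraries allow). Adjusted over the 8 tests of family balance and family sum by Benjamini-Hochberg, the exact permutation p was 0.190. No outcome of these 8 tests could have fallen under 0.05 after that adjustment, so the adjusted value cannot decide whether the balance differed. Any full separation of these libraries gives the same unadjusted p, and the ratio was chosen with earlier results of these data known. The separation is therefore given as a description. For single lines, where 3 against 3 libraries cannot go below p = 0.1, the differences were 1.76 in TG-High and 1.27 in TG-Low against NTG, each at that smallest exact permutation p. TG-High against TG-Low differed by 0.49 (exact permutation p = 0.3).

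The summed level of the 3 seed-sharing arms moved little beside its spread. It was 306, 357 and 249 CPM in TG-High, 289, 308 and 214 CPM in TG-Low and 206, 311 and 260 CPM in NTG, and all groups overlapped. The log2 difference of means was 0.15 for TG against NTG (exact permutation p = 0.524, adjusted p = 0.686), 0.24 for TG-High (p = 0.5) and 0.07 for TG-Low (p = 0.8), the last turning to -0.02 with library totals as scaling. The summed level of the 4 rows from chromosome 9 was 189 ± 21.5 CPM in TG-High, 143 ± 36.4 in TG-Low and 80.4 ± 26.3 in NTG (SD, n = 3 each).

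**Figure D4:**
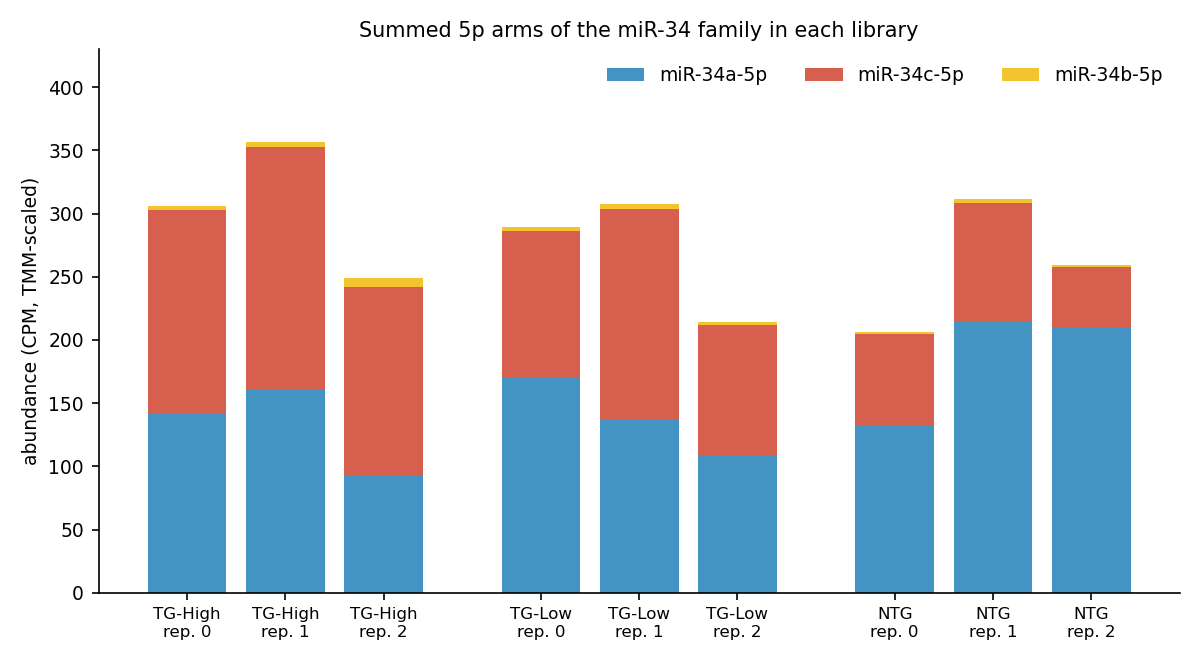
Abundance in CPM (vertical axis) of miR-34a-5p, miR-34c-5p and miR-34b-5p stacked in each of the 9 libraries, with TG-High, TG-Low and NTG left to right. The stacks run from 249 to 357 CPM in TG-High, 214 to 308 in TG-Low and 206 to 311 in NTG, and the share of miR-34c-5p is 18.5% to 35.5% in NTG libraries.

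The 2 hairpins differed in their major arm. For miR-34b the 3p arm made up 70.2% ± 3.04 of the reads of both arms in TG-High, 70.4% ± 5.41 in TG-Low and 70.3% ± 5.86 in NTG (SD, n = 3 each). For miR-34c the proportions were the reverse, with the 5p arm at 96.8% ± 0.596 in TG-High, 97.0% ± 0.649 in TG-Low and 97.5% ± 0.890 in NTG. As a ratio, miR-34c-5p was 30.8 ± 5.76 times as abundant as miR-34c-3p in TG-High, 33.5 ± 8.24 times in TG-Low and 43.5 ± 19.7 times in NTG (SD, n = 3 each). The highest NTG library, at 66.1, rests on the 7 counts of miR-34c-3p in NTG replicate 2. The libraries of the 3 groups overlapped for both hairpins, and the differences were not tested. Reads of the closely alike 5p arms of miR-34b and miR-34c may have been split between their rows by the counting, which the sources used here do not describe. With the 4 arms summed into 1 row, an alternative chosen after the data were seen, the log2 fold change was 1.28 ± 0.26 in TG-High (edgeR adjusted p = 0.00746), 0.82 ± 0.26 in TG-Low (0.142) and 1.07 ± 0.26 in TG (0.0245), each against NTG.

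The rows whose pattern was most like that of miR-34c-5p were found by the root mean square difference of log2 levels over the 9 libraries, each row set against its own NTG mean. The closest of 508 rows was miR-34b-3p, at 0.26 log2 units, followed by miR-671-3p (0.30), miR-6945-3p (0.30), miR-193b-3p (0.32) and miR-34c-3p (0.34). miR-34b-5p was placed 19 (0.44) and miR-34a-5p 428 (1.31), where the median row stood at 0.99. miR-671-3p, at 44.6 CPM on average, had log2 fold changes of 1.33 in TG-High and 1.16 in TG-Low against NTG, and miR-193b-3p 0.95 in TG-High and 0.79 in TG-Low. miR-6945-3p averaged 1.52 CPM, so its place rests on low counts. The rows most like miR-34a-5p were miR-181b-2-3p (0.14), miR-212-3p (0.26), miR-547-3p (0.27), miR-210-3p (0.28) and miR-503-5p (0.29), with a median row at 0.62. The place of miR-181b-2-3p, at 1.92 CPM on average, also rests on low counts. Of the 5 rows most like miR-34a-5p, miR-503-5p fell both in TG-High (log2 fold change -0.53, adjusted p = 0.0376 by edgeR) and in TG (-0.48, adjusted p = 0.0446) against NTG. Over all tested rows 9.43% were lower in TG-High and 3.93% in TG. The rows in both lists were picked by likeness over these same libraries, so the direction of their fold changes follows from the choice. The 4 other miR-34 rows were placed 491 to 503 of 508 in likeness to miR-34a-5p.

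The seed relative miR-449a-5p, known from multiciliated epithelium, was at 4.29, 3.99 and 1.91 CPM in TG-High, 2.45, 2.68 and 3.92 CPM in TG-Low and 1.92, 2.34 and 1.55 CPM in NTG. Its log2 fold change was 0.88 ± 0.34 in TG-High against NTG (SE; edgeR adjusted p = 0.105) and 0.64 ± 0.35 in TG-Low (0.348), and did not pass. Its counts were 7 to 49 in TG-High, 20 to 30 in TG-Low and 14 to 20 in NTG.

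Of 23 listed arms of other miRNAs described, mostly in human cells, as raised or matured under p53, 18 had rows and 17 were tested. In TG-High against NTG 3 rose, 6 fell and 8 did not pass, with a median log2 fold change of -0.38 where that of all tested rows was -0.01. The background for these counts was 8.84% of tested rows higher and 9.43% lower. Those that rose were both arms of miR-22, an abundant muscle miRNA (0.83 in the 5p and 0.66 in the 3p arm), and miR-16-1-3p (0.51), from a hairpin linked to cell cycle arrest. Those that fell were miR-215-5p (-1.40), miR-192-5p (-0.58), miR-194-5p (-1.07) and miR-194-2-3p (-1.29), which come from 2 related clusters, the epithelial miR-200c-3p (-2.15) and miR-145a-3p (-0.55) of smooth muscle.

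In TG-Low against NTG both arms of miR-22 rose (0.69 in the 5p and 0.62 in the 3p arm), miR-215-5p fell (-1.09) and 14 did not pass, with a median of 0.05 against 0.02 for all tested rows, of which 1.38% were higher and 0.196% lower. In TG against NTG both arms of miR-22 rose, miR-215-5p (-1.23) and miR-194-5p (-1.06) fell and 13 did not pass. The median was -0.15 against 0.01 for all tested rows, of which 4.72% were higher and 3.93% lower. In TG-High against TG-Low 0 of the 17 passed edgeR's test, against 1.38% of all tested rows in either direction. Of 4 miRNAs described as targeting the p53 mRNA, miR-25-3p (-0.63) and miR-30d-5p (-0.63) fell in TG-High against NTG, and miR-125b-5p (0.20) and miR-504-5p (-0.06) did not pass. In that comparison 9.43% of all tested rows were lower. miR-30d-5p was near the threshold (edgeR adjusted p = 0.0492). Its TG-High libraries (24702 to 29739 CPM) overlapped those of NTG (26975 to 50259 CPM). miR-25-3p also fell in TG against NTG (-0.56), and 0 of the 4 passed in TG-Low against NTG.

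Markers of other cell types moved in the same libraries. Of 20 listed miRNAs of epithelium, a tissue rich in miR-34b and miR-34c, 13 had rows, and their summed level was 200 to 236 CPM in TG-High, 257 to 521 CPM in TG-Low and 304 to 391 CPM in NTG. In TG-High against NTG, miR-96-5p rose (1.29), miR-200c-3p (-2.15) and miR-203-3p (-0.74) fell and 6 tested rows did not pass, with a median log2 fold change of -0.08. Over all tested rows 8.84% were higher and 9.43% lower, with a median of -0.01. miR-200a-5p was at 0 in all 6 transgenic libraries and had at most 2 counts in an NTG library. All 3 summed epithelial levels of TG-High lay below those of NTG, and TG-Low overlapped NTG. Most of that sum was miR-203-3p, at a mean of 166 CPM in TG-High, 295 in TG-Low and 277 in NTG. The tested rows that did not pass in TG-High against NTG went both ways. They ran from -1.75 for miR-141-3p to 0.88 for miR-449a-5p, which also stands on this list. miR-200c-3p stands on this list and on the p53 list.

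Of 10 blood cell miRNAs, 6 fell in TG-High against NTG (both arms of miR-144 and of miR-150, miR-451a and miR-155-5p), miR-223-5p rose and 3 did not pass, and none was at 0 in any library. Their median log2 fold change was -1.12 against -0.01 for all tested rows, of which 9.43% were lower and 8.84% higher. Their summed level was 1705 to 1820 CPM in TG-High, 2472 to 3323 CPM in TG-Low and 3197 to 4136 CPM in NTG. The 6 heart muscle miRNAs, none of them at 0, summed to 13214 to 16917 CPM in TG-High, 19774 to 23313 in TG-Low and 22746 to 26670 in NTG, and the median log2 fold change of the 6 in TG-High against NTG was 0.10. The lower sum follows miR-499-5p, the most abundant of them in these counts. Its mean level was 11462 CPM in TG-High, 17925 in TG-Low and 21620 in NTG, and it fell in TG-High (-0.92, adjusted p = 0.00161 by edgeR). The 5 others did not pass, with values from -0.48 for miR-133b-3p to 1.47 for miR-208b-3p. The 4 measured fibroblast miRNAs summed to 804 to 1066 CPM in TG-High, 797 to 945 in TG-Low and 706 to 882 in NTG, and miR-214-5p rose in TG-High (0.74). The 3 others did not pass there, with positive values from 0.15 for miR-199b-5p to 0.54 for miR-199a-3p. The median log2 fold change of the 4 in TG-High against NTG was 0.48, against -0.01 for all tested rows. The 3 measured neural miRNAs summed to 15.6 to 16.4 CPM in TG-High, 19.1 to 23.8 in TG-Low and 13.0 to 27.1 in NTG, and none of them passed. The part of these cell types in the miR-34 values was not tested.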

How the data were processed

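The deposited table holds raw read counts of 621 mature miRNAs in 9 libraries, per the file headers. Novoalign, SAMtools, Trim Galore 0.4.0, bcl2fastq 1.8.4 and DESeq2 1.18.1 are named in the submitters' processing notes, as is build mm10 (GRCm38). The sources used here do not name the tool that counted reads, its strand setting or its miRNA list. Columns deposited by the authors for both lines against NTG hold a log2 fold change and its SE, the mean signal after normalization, the Wald score, and raw and adjusted p-values.

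Counts were fitted as deposited with edgeR 4.0.16 (limma 3.58.1, R 4.3.3), TMM scaling and filterByExpr with a minimum count of 10, which left out 112 rows. TG against NTG used 2 groups, and the other comparisons a 3-group model over all 9 libraries. The 95% intervals are from the same fit. Log2 levels for likeness used a prior count of 2, and ratios of counts a pseudocount of 0.5. Family balance and sum were tested by exact permutation over libraries. No pair of replicates agreed within sampling noise, the smallest chi-square being 44.5 per degree of freedom. The fits were also run on simulated counts, drawn for each row independently, and no error rate for the real libraries is taken from that. Alternatives were DESeq2 size factors, library totals, the Wald test of DESeq2 1.42.0, no filter, a replicate block, a 3-group model and each library left out. Sequences are from RefSeq, annotation from GENCODE M21 (Python 3.11.15). The members, lists and tests were chosen with earlier results of these data known. Named miRNAs were the 5 members, list members past the threshold, the measured seed relative and the 5 rows most like miR-34c-5p and miR-34a-5p. miR-208a-3p, miR-1a-3p, miR-133a-3p, miR-133b-3p, miR-208b-3p, miR-200a-5p, miR-141-3p, miR-125b-5p and miR-504-5p were added after their values were seen.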

Additional observations from a re-analysis of the deposited data

How the results depend on the processing

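The miR-34 calls that changed in TG-High and TG against NTG stand beside their results, except those gained in TG with a library left out, which were miR-34b-3p without TG-Low replicate 0, TG-Low replicate 2 or NTG replicate 1, miR-34c-3p without TG-Low replicate 2 or NTG replicate 1 and miR-34b-5p without TG-Low replicate 2. For TG against NTG the count of called miRNAs was 44, and it was 75 with DESeq2's Wald test, 75 with the 3-group model and 14 to 108 with a library left out. For TG-High against NTG it was 93, and 37 to 114 with a library left out. For TG-Low against NTG it was 8, with 29 by DESeq2's Wald test, 21 with no filter on low counts and 0 to 18 with a library left out. For TG-High against TG-Low it was 7, with 4 under library totals, 12 by DESeq2's Wald test, 25 with no filter and 0 to 10 with a library left out. The cause was not tested. The log2 fold change of miR-34a-5p in TG-High against TG-Low turned to 0.012 with library totals, 0.18 without TG-High replicate 2 and 0.14 without TG-Low replicate 0, within a range of -0.27 to 0.18 with a library left out. The summed seed-sharing level turned to -0.017 in TG-Low against NTG with library totals. With a library left out, its log2 difference ranged from -0.0044 (without NTG replicate 0) to 0.29 in TG and from -0.090 (without NTG replicate 0) to 0.22 in TG-Low against NTG, where it was -0.037 without TG-Low replicate 1. Same-numbered libraries of different groups had correlations of deviations from -0.17 to 0.23, over 0.1 in 3 of 9 pairs. Differently numbered libraries had -0.20 to 0.18, over 0.1 in 3 of 18 pairs. Of the 9 libraries, 4 correlated best with their own number, and the numbers were not taken to pair samples. With the replicate block the counts of calls were 35 for TG, 75 for TG-High and 11 for TG-Low against NTG and 6 for TG-High against TG-Low, miR-34c-5p passed in TG-Low (adjusted p = 0.0291, edgeR) and miR-34b-5p was lost in TG-High. The arms with under 30 counts in most libraries limit what can be said of miR-34b-5p and miR-34c-3p.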
